A study of Mus musculus with 20 samples.

Results

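The 5 libraries described here were made from eosinophils sorted at day 7 from mouse lung grafts whose recipients received no costimulatory blockade, a treatment that blocks the second signals through which T cells become activated. They were chosen by their sample labels alone, and they are 5 of the 20 samples of the series. Each library pooled the lungs of 3 to 5 mice, so that a value is an average over animals and the variation described is between pools. The pools are called 1 to 5 after the labels. These numbers are names and carry no order.

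Donor lungs were from Balb/c mice and recipients were C57BL/6 mice, and the labels describe the sorted eosinophils as being of recipient origin. The other 3 groups of 5 samples are resting lung of untreated mice and grafts under costimulatory blockade at day 7 and day 30. The resting pools are given beside the day 7 pools as the level of undisturbed lung, and the 2 groups under blockade are not analysed here. The counts of the day 7 and of the resting libraries were deposited separately. A difference in their sequencing or processing cannot be told apart from a difference in level or spread. The labels do not say which pools were sorted or sequenced together, so a shared sort or sequencing day could not be examined. The p-values below measure the spread between these libraries, which may be technical in part.

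Eosinophils are granulocytes that home along eotaxin gradients through the receptor CCR3, depend on interleukin 5 for their survival and carry the sialic acid receptor Siglec-F in mice. Their granule proteins are made mostly in the bone marrow, so that mature cells in tissue hold little mRNA for them. Macrophages are known for the C1q complement chains, the receptor CSF1R and, when activated by interferon-gamma, for strong antigen presentation by major histocompatibility complex (MHC) class II. Both cell types respond to interferons by inducing chemokines, guanylate-binding proteins and the checkpoint ligand PD-L1, encoded by Cd274.

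Total counts were 15695074 to 26683784 in the day 7 pools and 6666577 to 12883144 in the resting pools. Levels are given in CPM, the count of a gene relative to its library total, with totals adjusted by the trimmed mean of M-values (TMM), and 3 counts correspond to 0.117 to 0.197 CPM at day 7. The share of counts from mitochondrially encoded genes was 0.533%, 0.517%, 0.746%, 1.14% and 1.11% in pools 1 to 5, against 1.44% to 2.61% in resting lung. Every pair of pools differed by more than sampling noise, with a chi-square over genes, per degree of freedom, of 24.7 between pools 4 and 5 (the closest pair) to 133 between pools 1 and 5.

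The defining eosinophil markers were present but differed in level and in their order over the pools. Ccr3 (ENSMUSG00000035448, chr9:124021972-124031689 on mm10) was at 170, 316, 329, 584 and 809 CPM in pools 1 to 5, with 158 to 470 CPM in resting lung. It was highest in pools 5 and 4, low in pool 1, and nearly equal in pools 2 and 3. Siglecf (ENSMUSG00000039013, chr7:43351341-43359531), the gene of Siglec-F, was at 271, 134, 165, 237 and 299 CPM. It was also highest in pool 5 and, unlike Ccr3, it was high in pool 1. In these bulk libraries, fewer cells of a type and less RNA per cell cannot be told apart. Il5ra, the interleukin 5 receptor chain, was at 16.4, 27.3, 44.6, 68.0 and 71.9 CPM, in the same order of pools as Ccr3. Prg2, the granule major basic protein, was at 44.7, 34.1, 68.2, 94.0 and 166 CPM, and Epx, the eosinophil peroxidase, at 5.96, 0.548, 9.27, 9.60 and 8.97 CPM. In resting lung Epx was at 22.3 to 170 CPM, above all 5 day 7 pools, and Il5ra at 33.5 to 79.6 CPM. Pool 2 stood lowest for Siglecf, Prg2 and Epx. The coordinates are annotated gene spans, counted from 1.

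The stretches before the RefSeq starts of Ccr3 and Il5ra are shown as examples, because both are eosinophil receptor genes with the same order of pools. Other genes shared that order too. They are RefSeq sequences of GRCm38.p6, 5′ to 3′ on the strand of the gene, at chr9:124021821-124021970 (plus strand) and chr6:106749038-106749187 (minus strand). Capitals mark the letters AGATAA, which GATA factors of the eosinophil lineage are known to bind, searched on both strands from 250 bases before to 50 after the start. The first match begins 30 bases before the start of Ccr3 and 74 bases before that of Il5ra.
Ccr3: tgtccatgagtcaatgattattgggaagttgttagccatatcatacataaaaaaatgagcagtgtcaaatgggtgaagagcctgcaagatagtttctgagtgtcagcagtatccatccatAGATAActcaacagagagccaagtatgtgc
Il5ra: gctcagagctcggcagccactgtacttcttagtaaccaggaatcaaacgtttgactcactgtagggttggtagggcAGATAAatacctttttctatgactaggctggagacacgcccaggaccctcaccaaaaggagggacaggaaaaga
Of the 27025 genes whose promoters were searched, 12.7% hold these letters, and a match describes the sequence only. The same letters also stand, unmarked, in the stretches of Gbp5 and Cxcl10 shown further below, so they are not particular to the order of Ccr3.

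The complement genes that mark macrophages were measured in the same sorted pools at levels far above those of resting lung, whereas markers of alveolar macrophages were not. C1qa (ENSMUSG00000036887, chr4:136895917-136898803), a chain of the complement component C1q, was at 299, 579, 304, 130 and 217 CPM in pools 1 to 5, with 6.53 to 20.03 CPM in resting lung. C1qb (ENSMUSG00000036905, chr4:136880129-136886187), which lies beside it, was at 694, 1412, 830, 338 and 521 CPM. Both were highest in pool 2 and lowest in pool 4, and the day 7 and resting pools did not overlap. Against resting lung C1qb rose by 4.93 (log2, SE 0.42, adjusted p = 7.3e-07, edgeR quasi-likelihood test with Benjamini-Hochberg adjustment over 16500 genes). In that comparison 23.3% of all genes were called higher and 23.4% lower. Counts of list members that rose or fell are to be read beside these shares. The third chain, C1qc, followed at 438, 770, 463, 183 and 327 CPM. The 10 alveolar macrophage markers, which share Ear1 with the eosinophil list, summed to 1436, 1364, 1343, 1491 and 773 CPM, against 1364 to 2047 CPM in resting lung, and 2 rose and 6 fell. Chil3 held the largest part of the sum in every day 7 pool.

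PD-L1 and CXCL10, products that interferon-gamma induces, differed from each other in how they varied. Cd274 (ENSMUSG00000016496, chr19:29367455-29388095) was at 2516, 1382, 1136, 1062 and 839 CPM, against 106 to 193 CPM in resting lung. Its order over the pools was the exact reverse of that of Ccr3, with pool 1 highest and pool 5 lowest, and its standard deviation (SD) of log2 values was 0.599 over all 5 pools and 0.297 without pool 1. Cxcl10 (ENSMUSG00000034855, chr5:92346638-92348889), a chemokine for CXCR3-bearing T cells, was at 1759, 1438, 1482, 2062 and 1089 CPM. Its highest pool was 4, in which C1qa was lowest, and its SD of 0.345 was below those of Cd274, Ccr3 (0.867) and C1qa (0.782). Cxcl10 was at 77.3 to 99.4 CPM in resting lung, below all 5 day 7 pools.

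**Figure D1:**
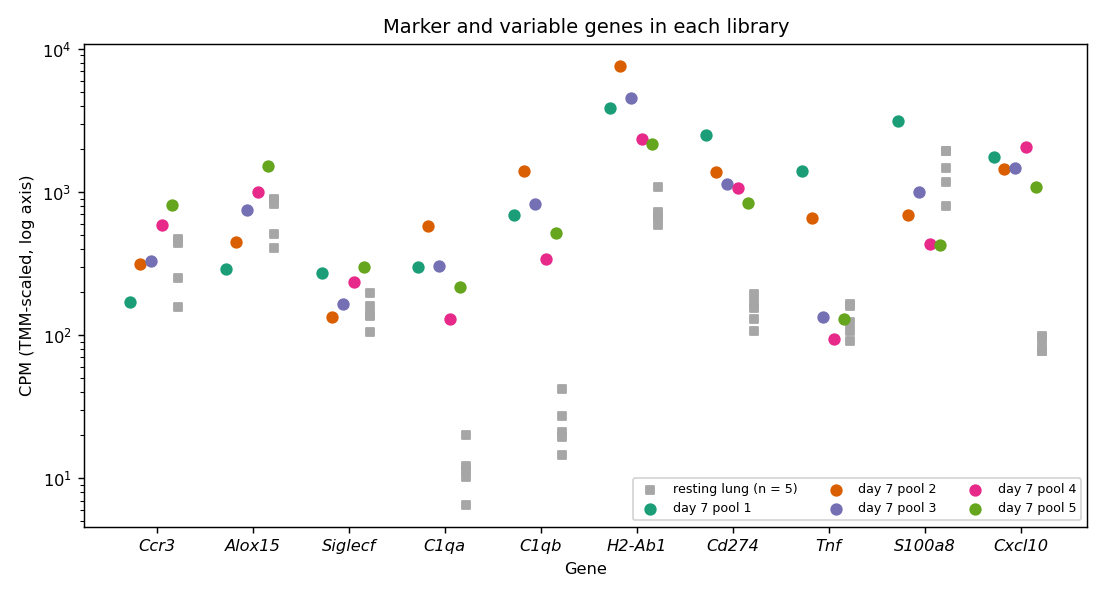
CPM on a log axis for 10 genes in each day 7 pool (coloured points, n = 5) and each resting pool (grey squares, n = 5). Ccr3 and Alox15 are highest in pool 5 and lowest in pool 1, C1qa, C1qb and H2-Ab1 are highest in pool 2, and Cd274, Tnf and S100a8 are highest in pool 1.

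Markers of other cell types were counted as whole lists, and each list was given as its summed CPM in pools 1 to 5. The eosinophil list (15 genes) summed to 1551, 1823, 2352, 3319 and 4078 CPM, with 2382 to 4103 CPM in resting lung, so that pools 1, 2 and 3 lay below the resting range. Of its members 8 of 15 were highest in pool 5 and 6 of 15 in pool 4, and 0 were at a count of 0. The monocyte and macrophage list (14 genes) summed to 7627, 11860, 7622, 5353 and 5553 CPM, all above the resting range of 2643 to 3405 CPM, with 12 of 14 members highest in pool 2. The neutrophil list (14 genes) summed to 12850, 6150, 7937, 9069 and 9490 CPM, and 9 of 14 members were highest in pool 1. Its member Retnlg alone held 1382, 2784, 3329, 6789 and 7108 CPM of these sums, which was most of them in pools 4 and 5. Members highest or lowest in a pool are to be read beside the same shares over the 5930 genes at 20 CPM or more in all 5 pools. Of those, 27.1%, 27.6%, 12.6%, 13.6% and 19.1% were highest in pools 1 to 5, and 18.8%, 13.6%, 13.9%, 17.8% and 35.9% lowest. List members below 20 CPM in some pool are counted too, although they lie outside these 5930 genes. The 5930 hold 0 of 10 epithelial, 1 of 10 endothelial and 4 of 10 stromal genes, so for these lists the shares are from unlike genes. Sums of different lists are not levels of cells and are not compared with each other. The part that other cells of the sort play in the differences between pools was not tested.

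T cell genes were lowest in pool 2 for 11 of 12 members and highest in pool 5 for 10 of 12. Their sum was 641, 396, 668, 565 and 951 CPM, against 119 to 160 CPM in resting lung, and 12 of 12 members rose against resting lung. Cd8a, a chain of the CD8 coreceptor, was at 72.7, 38.8, 71.5, 57.3 and 144 CPM, and Cd3e, of the T cell receptor complex, at 68.4, 45.5, 68.4, 60.9 and 119 CPM. Natural killer and cytotoxic genes (10 genes) were highest in pool 3 for 6 members: the granzyme gene Gzma was at 69.8, 87.9, 216, 145 and 70.0 CPM. Gzmb, another granzyme, was at 381, 136, 334, 265 and 291 CPM, lowest in pool 2. Dendritic cell genes summed to 269, 282, 265, 267 and 327 CPM, and B cell and plasma cell genes to 1423, 963, 1316, 1022 and 1116 CPM. The dendritic sum was highest in pool 5, but 7 of its 11 members were lowest there, beside 35.9% of the 5930 genes.

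Most listed genes of non-immune lung cells were lowest in pool 2. Epithelial genes (10 genes) summed to 410, 39.2, 485, 277 and 275 CPM, and 9 of 10 were lowest in pool 2, against 3197 to 5939 CPM in resting lung. Sftpc, the surfactant protein C of alveolar type II cells, was at 211, 12.2, 228, 151 and 91.8 CPM. Stromal genes (10 genes) summed to 781, 164, 558, 656 and 448 CPM, with 8 of 10 lowest in pool 2. Col3a1, a fibrillar collagen, was at 292, 44.6, 177, 213 and 135 CPM. Endothelial genes summed to 81.7 to 148 CPM at day 7 and to 1908 to 2575 CPM in resting lung, and 10 of 10 fell. Mast cell and basophil genes summed to 240, 54.0, 183, 116 and 172 CPM, and the basophil protease Mcpt8 was at 82.0, 2.41, 46.1, 12.5 and 38.3 CPM. Pool 2 was thus the lowest library for epithelial, stromal, endothelial, T cell and mast cell or basophil sums, and the highest for the macrophage sum. It was also lowest for the neutrophil (6150 CPM), natural killer and cytotoxic (803 CPM) and B cell and plasma cell (963 CPM) sums. Low values in pool 2 were therefore not particular to non-immune cells.

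**Figure D2:**
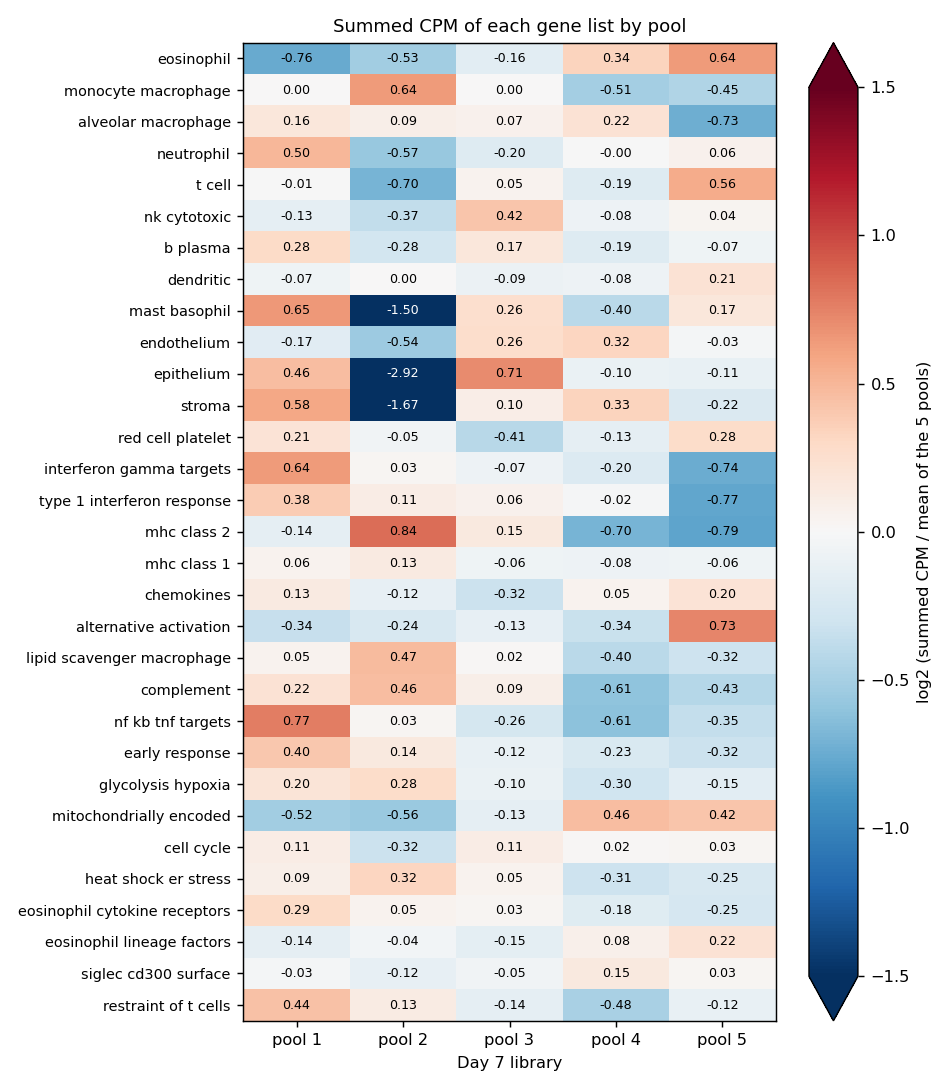
Log2 ratio of the summed CPM of each of the 31 gene lists in a pool to its mean over the 5 pools, printed in each cell. Colour stops at 1.5 in either direction, which only the epithelial, stromal and mast cell or basophil sums of pool 2 pass; rows of eosinophil and mitochondrially encoded genes are high in pools 4 and 5, and those of interferon targets are high in pool 1 and low in pool 5.

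The most abundant transcripts were shared by the pools in part. By mean CPM the leading genes were Actb (16564 CPM), Lars2, Lyz2, H2-D1, Fth1, Cd74, Thbs1, Il1b, Tmsb4x, Gm49339, B2m and Gm23935. Of these 12 genes, 6 were among the 12 highest in all 5 pools, and of the 100 highest, 57 were among the 100 highest in every pool. In resting lung 62 of these 100 genes were also among the 100 highest. Lars2 and Gm23935, a 57-base microRNA model, may hold reads of other transcripts that match in part, and their values are uncertain.

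Levels of different genes were compared per kilobase of merged exon. On this scale Lyz2, the lysozyme of myeloid cells, led with 8792 CPM per kb, followed by Retnlg, a resistin-like protein, with 7215 CPM per kb. B2m, the light chain of MHC class I, had 6512, Actb 6183 and Cd74, the invariant chain of MHC class II, 5026 CPM per kb. Tmsb4x, H2-D1, Il1b, Ftl1, Ccl6, Gm49339 and Fth1 completed the 12 highest. Per kb, Retnlg lay above Lyz2 in pool 4 (11449 against 8516 CPM per kb) and pool 5 (11986 against 6155 CPM per kb) and below it in the other 3 pools.

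Abundant genes were of 2 kinds with respect to the pools. H2-D1, an MHC class I heavy chain, was nearly even at 9586, 10474, 8883, 9677 and 9716 CPM (SD of log2 values 0.0843), and Actb differed 1.36 times between its highest and lowest pool. Cd74 was at 7550, 14969, 9375, 5314 and 4987 CPM, which follows the C1q genes with pool 2 highest. Il1b, the cytokine interleukin 1-beta, was at 12392, 7623, 6631, 3841 and 5181 CPM and was highest in pool 1. Retnlg was at 1382, 2784, 3329, 6789 and 7108 CPM, and the chemokine Ccl6 at 2466, 3667, 4167, 7174 and 7960 CPM, both in the order of Ccr3. The iron storage chain Fth1 was at 10573, 12303, 8747, 6189 and 6561 CPM, low in pools 4 and 5.

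The spread between pools was described for the 5930 genes at 20 CPM or more in all 5 pools, as the SD of log2(CPM + 1). The median SD was 0.205 (quartiles 0.143 and 0.316, 95th percentile 0.608), whereas the median SD that counting alone gives was 0.0412, and 5491 genes (92.6%) varied by more than 2 times their counting SD. In 899 genes (15.2%) the highest pool was over 2 times the lowest, and in 94 genes (1.59%) over 4 times. Without pool 5 the first of these counts fell to 517. At the quiet end, U2surp, Babam2 and Kif5b, genes of splicing, DNA repair and vesicle transport, had SDs of 0.0171, 0.0217 and 0.0222 (0.0691, 0.0405 and 0.0732 on library totals). Kit, a growth factor receptor of mast cells, lay at 26.8 to 31.4 CPM in all 5 pools.

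**Figure D3:**
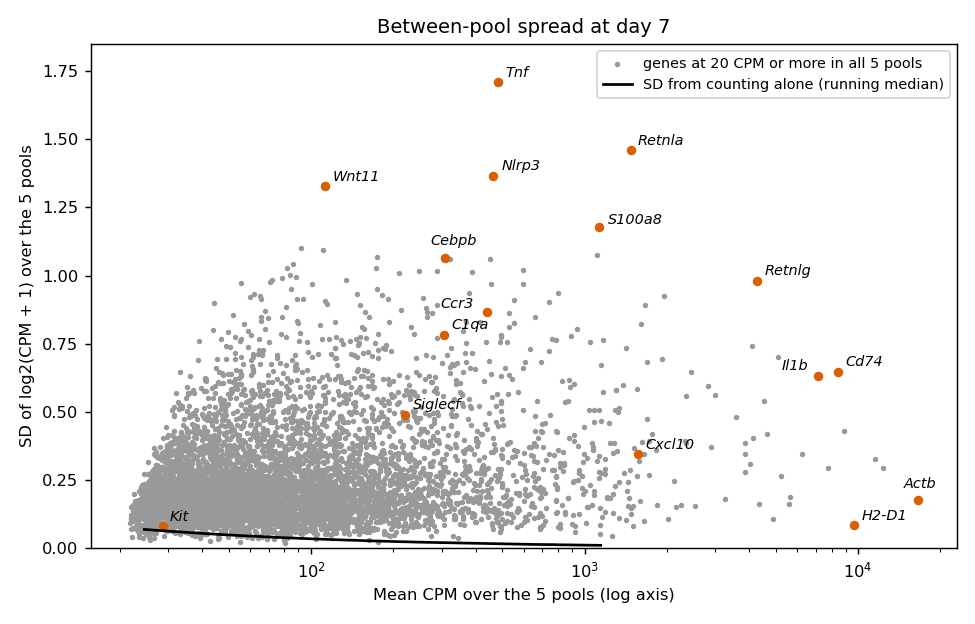
SD of log2(CPM + 1) over the 5 day 7 pools against mean CPM on a log axis, 1 point per gene for 5930 genes, with the SD expected from counting as a line. Nearly all genes lie above the line, Tnf has the largest SD (1.71), and the abundant genes H2-D1 and Actb lie near the bottom.

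A first principal component of the centred log2 values held 67.2% of the variance and scored pools 1 to 5 at -0.229, -0.197, -0.111, 0.209 and 0.328. It set pools 4 and 5 apart from pools 1, 2 and 3. The second held 17.5% and had pool 1 (0.196) and pool 2 (-0.132) at its ends. Of the 100 genes with the largest SD, 57 were highest in pool 1, 21 in pool 5, 14 in pool 2, 8 in pool 4 and 0 in pool 3. Their lowest pool was most often pool 5 (41 genes), pool 4 (24) or pool 1 (23).

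The largest SD belonged to Tnf (ENSMUSG00000024401, chr17:35199381-35202007), the cytokine tumour necrosis factor, at 1404, 659, 135, 93.8 and 130 CPM. Pools 1 and 2 were high, and pools 3, 4 and 5 lay within the resting range of 91.4 to 164 CPM. Tnf rose against resting lung by 1.90 (log2, SE 0.66, adjusted p = 0.031, edgeR), but without pool 1 the difference was 0.987 with an adjusted p of 0.121, and the call was also lost without pool 2 and without each of 3 resting pools (adjusted p 0.0518 to 0.0665). Nlrp3, the inflammasome sensor, was at 1231, 508, 310, 121 and 144 CPM (SD 1.37), and Il1f9, interleukin 36-gamma, at 289, 96.1, 77.7, 42.8 and 46.8 CPM. For all 3 genes pool 1 was highest and pool 4 lowest. Cxcl3, a neutrophil chemokine, was at 505, 284, 78.2, 141 and 235 CPM, high in pool 1 and lowest in pool 3.

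The 18 listed targets of NF-kB and TNF signalling, all at 20 CPM or more, were highest in pool 1 for 13 members. Their sum was 34320, 20590, 16770, 13170 and 15730 CPM, with 8739 to 10490 CPM in resting lung. Ptgs2, the inducible cyclooxygenase, was at 2331, 1215, 903, 572 and 801 CPM (SD 0.763, and 0.449 without pool 1), and Tnfaip2, a gene that TNF induces, at 3556, 1658, 1502, 833 and 770 CPM. Against resting lung 13 of 18 rose and 0 fell, beside 39.8% and 11.2% of the 5930 genes. The median SD of the list was 0.442, against 0.205 over all 5930 genes.

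Of the 14 listed neutrophil genes, 9 were also highest in pool 1, beside 27.1% of the 5930 genes, 4 in pool 3 and 1 in pool 5. S100a8 was at 3110, 691, 992, 433 and 429 CPM (SD 1.18, and 0.583 without pool 1), and its partner S100a9, with which it forms calprotectin, at 2844, 670, 1085, 502 and 460 CPM. Cxcr2, the receptor for neutrophil chemokines, was at 298, 91.1, 162, 62.1 and 59.0 CPM, and the iron-binding Lcn2 at 203, 48.1, 86.4, 50.04 and 33.2 CPM. Pool 3 was the next highest for all 4 genes. Csf3r, the receptor for granulocyte colony-stimulating factor, was at 1104, 523, 626, 265 and 240 CPM. Retnlg, a member of the same list, went the other way, highest in pools 4 and 5 as given above. Against resting lung 3 of 14 neutrophil genes fell and 0 rose, and S100a8 was among those not called until pool 1 was left out (log2 difference -1.20, adjusted p = 0.00725, edgeR).

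Retnla (ENSMUSG00000061100, chr16:48842551-48844461), a resistin-like protein induced by interleukins 4 and 13, had the next largest SD after Tnf at 264, 734, 1233, 804 and 4333 CPM (SD 1.46). Pool 5 was far above the rest, and without it the SD was 0.941. Retnla rose against resting lung (27.96 to 52.6 CPM) by 5.31 (log2, SE 0.67, adjusted p = 2.7e-05, edgeR). Serpinb2, a protease inhibitor, was also highest in pool 5 at 231, 330, 571, 474 and 1372 CPM. Other genes of alternative activation did not share this order: Arg1, arginase 1, was at 292, 564, 245, 114 and 169 CPM and Chil3, a chitinase-like protein, at 1081, 717, 821, 1116 and 389 CPM, lowest in pool 5. Arg1 and Retnla were thus highest in different pools. Of the 13 listed genes of alternative activation 7 rose against resting lung, beside 23.3% of all genes tested.

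Several of the most variable genes divided pools 4 and 5 from the other pools. Wnt11, a secreted signalling protein, was at 45.8, 49.7, 30.6, 246 and 191 CPM (SD 1.33). Cebpb, a myeloid transcription factor, was at 150, 155, 130, 430 and 674 CPM, and Sema7a, a membrane-anchored semaphorin, at 28.6, 47.9, 53.8, 143 and 155 CPM. In each of these 3 genes, both pools 4 and 5 were above all 3 other pools, with no overlap. The opposite division was seen for Marcksl1, an actin regulator, at 781, 508, 332, 156 and 162 CPM, and for Vdr, the vitamin D receptor, at 103, 143, 90.0, 51.0 and 22.5 CPM. Abca1, the cholesterol exporter, was at 609, 375, 176, 99.7 and 186 CPM, with pool 4 lowest.

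To describe which genes moved with the anchor genes, the 10 pairs of pools were taken in turn, and the pairs in which a gene was ordered as in the anchor were counted. A count of 10 means the same order of pools, and a count of 0 the reverse. With 5 pools this is a description of likeness and has no p. C1qa and C1qb had the same order, and Ccr3 and Siglecf agreed in 7 of 10 pairs, so no gene could share 9 pairs with both eosinophil anchors, and each was taken alone. Ccr3 and C1qa agreed in 3 of 10.

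For Ccr3, 561 genes (9.46% of 5930, Ccr3 included) shared its order in 9 or 10 pairs and 1055 (17.8%) in 0 or 1. With library totals in place of TMM scaling these counts were 834 and 598, so which of them was larger depended on the scaling. The exact order was shared by 158 genes (2.66%) and reversed in 338 (5.7%). For Siglecf, 272 genes (4.59%) agreed in 9 or 10 pairs and 711 (12%) in 0 or 1. Without pool 1, Ccr3 and Siglecf had the same order of the other 4 pools, 462 genes shared it in all 6 pairs and 1197 reversed it.

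**Figure D4:**
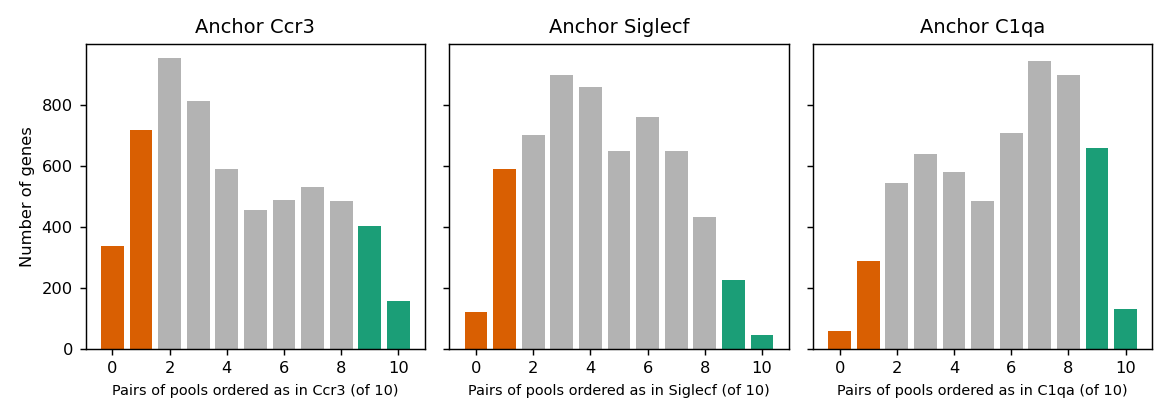
Number of genes, of 5930, by how many of the 10 pairs of pools were ordered as in Ccr3, Siglecf or C1qa; green bars are 9 or 10 pairs and orange bars 0 or 1. For Ccr3 the counts are 561 and 1055 genes, and for C1qa 788 and 347.

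The genes closest to Ccr3, by the root mean square distance of centred log2 values, were Gapt (0.0846), Camk1 (0.104) and Reps2 (0.112), over 5 pools. Gapt, a membrane adaptor of haematopoietic cells, was at 65.4, 116, 139, 247 and 340 CPM. Camk1, a calmodulin-dependent kinase, was at 145, 262, 301, 492 and 592 CPM, and Reps2, a protein of endocytosis, at 29.1, 46.0, 51.5, 98.6 and 115 CPM. In all 3 genes pools 5 and 4 were high and pool 1 low, and all 10 pairs were ordered as in Ccr3. None of the 3 passed the test against resting lung, nor did Ccr3 itself (log2 difference 0.31, SE 0.39, adjusted p = 0.55, edgeR).

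Among eosinophil markers, 5 of the 8 at 20 CPM or more shared the order of Ccr3 in 9 or 10 pairs (Ccr3 itself included), 0 in 0 or 1, and these counts were the same under the other 2 scalings. The background share is the 9.46% given above. Alox15, a lipoxygenase of eosinophils and macrophages, was at 291, 444, 742, 994 and 1514 CPM (SD 0.937), and Adgre4, an adhesion receptor, at 194, 272, 370, 444 and 402 CPM. Il1rl1, the interleukin 33 receptor, was at 52.1, 39.0, 58.5, 80.4 and 110 CPM and rose by 1.23 (log2, SE 0.26, adjusted p = 0.0018, edgeR) against resting lung. The ribonuclease Ear2 was at 43.3, 39.5, 80.1, 109 and 62.2 CPM, with pool 4 highest. Of the 7 listed markers below 20 CPM in some pool, Il5ra, Ear1, Ear6, Prg3 and Ptgdr2 had their 2 highest values in pools 4 and 5, whereas Epx was highest in pools 4 and 3 and Clec4a4 was lowest in pool 5 (0.269 CPM). Of the 15 markers 2 rose and 6 fell against resting lung. Epx, Ear1, Ear6 and Prg3 were among those that fell, and for each all day 7 pools lay below the resting range. Siglecg, a sialic acid receptor outside the marker list, was at 72.1, 97.2, 99.7, 214 and 245 CPM, in the order of Ccr3.

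The mitochondrially encoded genes went with Ccr3 as well: 7 of 10 at 20 CPM or more agreed in 9 or 10 pairs, beside 9.46% of the 5930 genes. Their summed level was 5918, 5753, 7723, 11650 and 11320 CPM, against 13500 to 23220 CPM in resting lung, and 13 of 13 fell. mt-Nd4, a subunit of respiratory complex I, was at 360, 366, 514, 798 and 813 CPM, and mt-Co3, of complex IV, at 66.3, 71.7, 72.0, 131 and 155 CPM. This share is used as a sign of RNA or cell quality in many studies, and it stands beside every gene that was high in pools 4 and 5. Its part in those differences was not tested.

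Of the 338 genes that reversed the order of Ccr3, those with the largest SDs were Arg2 (1.07), Egr1 and Tgtp1 (1.06 each) and Gbp5 (1.02). Arg2, arginase 2, was at 383, 190, 165, 75.6 and 60.1 CPM. Egr1, an immediate early transcription factor, was at 709, 392, 255, 135 and 121 CPM and fell by 1.64 (log2, SE 0.42, adjusted p = 0.0061, edgeR) against resting lung. Tgtp1, an interferon-inducible GTPase, was at 1179, 403, 277, 207 and 195 CPM, and Gbp5, a guanylate-binding protein, at 1404, 583, 452, 327 and 211 CPM. Gbp5 rose by 5.30 (log2, SE 0.51, adjusted p = 2.3e-06, edgeR), and without pool 1 its SD was 0.629 and that of Tgtp1 0.477. Fpr2, a formyl peptide receptor, Batf2, an interferon-induced transcription factor, and Ikbke, a kinase of antiviral signalling, were in the same set.

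The stretches before the RefSeq starts of Gbp5 and Cxcl10 are shown because both genes are interferon targets, while only Gbp5 reversed the order of Ccr3. They are RefSeq sequences of GRCm38.p6 at chr3:142496684-142496933 (plus strand) and chr5:92348890-92349139 (minus strand), 5′ to 3′ on the strand of the gene. Capitals mark the letters of an interferon-stimulated response element, GAAA, any 2 bases and GAAA again, searched on both strands in the same window, which begin 165 bases before the start of Gbp5 and 213 before that of Cxcl10.
Gbp5: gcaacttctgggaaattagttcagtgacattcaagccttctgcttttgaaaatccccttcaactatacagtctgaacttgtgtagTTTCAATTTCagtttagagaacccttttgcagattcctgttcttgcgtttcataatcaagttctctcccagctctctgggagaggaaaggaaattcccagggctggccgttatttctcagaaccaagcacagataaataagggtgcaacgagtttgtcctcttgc
Cxcl10: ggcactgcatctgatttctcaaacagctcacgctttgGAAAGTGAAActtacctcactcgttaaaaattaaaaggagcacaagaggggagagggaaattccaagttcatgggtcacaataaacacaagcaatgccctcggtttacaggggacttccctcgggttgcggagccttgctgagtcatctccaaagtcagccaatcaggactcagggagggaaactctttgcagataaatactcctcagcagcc
Of the 27025 genes whose promoters were searched, 3.99% hold these letters. The RefSeq start of Gbp5 lies inside the gene span of the annotation used for the counts, chr3:142493978-142522344, whose start is further upstream. Shares of promoters with either motif are not compared between the order sets. Only 79.6% of the 5930 genes, and 75.9% of the 158 in the exact order of Ccr3, had a promoter among those searched. The search left out a whole chromosome, and the missing promoters make such a check void.

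Interferon-gamma targets were lowest in pool 5 for 24 of 25 members, beside 35.9% of all genes, and highest in pool 1 for 16, beside 27.1%. Their sum was 24280, 15820, 14790, 13490 and 9303 CPM, against 2009 to 2632 CPM in resting lung. Of the 24 at 20 CPM or more, 15 shared the order of Ccr3 in 0 or 1 pairs and 0 in 9 or 10, with 12 in 0 or 1 on library totals, beside the background of 17.8%. All 25 rose against resting lung, with a median log2 difference of 3.13 against 0.05 over all 16500 genes. Gbp6 was at 190, 130, 107, 68.7 and 43.3 CPM, the reverse order of Ccr3. Cxcl9 and Nos2 were highest in pool 2 instead: Cxcl9, a chemokine for T cells, was at 349, 508, 462, 241 and 188 CPM, and Nos2, which makes nitric oxide, was at 257, 405, 212, 103 and 70.9 CPM.

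The antiviral genes of the type I interferon response were also lowest in pool 5, for 21 of 24 members, and highest in pool 1 for 16. They summed to 5201, 4304, 4163, 3940 and 2331 CPM, with 852 to 1211 CPM in resting lung, and 23 of 24 rose. Of 21 at 20 CPM or more, 12 shared the order of Ccr3 in 0 or 1 pairs (8 on library totals), beside 17.8% of the 5930 genes. Oas3, a sensor of double-stranded RNA, was at 265, 142, 163, 128 and 59.3 CPM. Ifit2 and Ifit3, which restrain viral translation, were at 226, 149, 209, 225 and 68.4 CPM and at 106, 93.3, 119, 132 and 37.3 CPM, so that pool 5 stood below the 4 others, and without it the SD of Ifit2 fell from 0.727 to 0.284.

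MHC class I genes had a median SD of 0.232, beside 0.205 over all genes, and sums of 28010 to 32440 CPM. Tap2, a peptide transporter, was at 571, 404, 351, 335 and 311 CPM, in the reverse order of Ccr3, and H2-Q6 at 871, 1125, 1051, 1339 and 1571 CPM, with the order of Ccr3 in 9 pairs. All 18 rose against resting lung, with a median log2 difference of 1.58. Class I heavy chains are near-identical copies, and donor and recipient differ in their alleles, so values of single H2 genes are uncertain.

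With C1qa and C1qb, 788 genes (13.3%) were ordered alike in 9 or 10 pairs and 347 (5.85%) in 0 or 1. On library totals these counts were 544 and 457, and with DESeq2 size factors 281 and 134, because C1qa was at 299 CPM in pool 1 and 304 in pool 3 and that scaling exchanged these pools for C1qa but not for C1qb. The 3 genes closest to C1qa were C1qc, C1qb and Ms4a7 (root mean square distances 0.0725, 0.0833 and 0.117). Ms4a7, a membrane protein of macrophages, was at 65.6, 128, 73.5, 23.9 and 47.5 CPM, and Gpnmb, a glycoprotein of lipid-laden macrophages, at 400, 1131, 555, 239 and 312 CPM. Fabp5, a fatty acid binding protein, was at 239, 550, 334, 139 and 180 CPM. Pool 2 was highest and pool 4 lowest in all of these genes. Gpnmb rose by 4.68 (log2, SE 0.43, adjusted p = 1.6e-06, edgeR) against resting lung.

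Of the 14 monocyte and macrophage markers, 7 shared the order of C1qa in 9 or 10 pairs (C1qa and C1qb included), beside 13.3% of the 5930 genes. Against resting lung 11 of the 14 rose and 0 fell, beside 39.8% and 11.2% of the 5930 genes. Csf1r, the growth factor receptor of macrophages, was at 1074, 1365, 1102, 821 and 614 CPM, and Fcgr1, a receptor for IgG, at 165, 232, 197, 113 and 74.6 CPM. Apoe, a lipid carrier, was at 1014, 2077, 777, 491 and 869 CPM. Adgre1, the gene of the F4/80 antigen, which mouse eosinophils also carry, went the other way at 452, 606, 603, 823 and 1024 CPM and shared the order of Ccr3 in 9 pairs. The alveolar macrophage markers Marco and Chil3 differed from each other, with Marco at 29.6, 29.0, 29.6, 9.93 and 10.05 CPM.

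Most MHC class II genes followed the macrophage order. Of 9 at 20 CPM or more, 7 shared the order of C1qa in 9 or 10 pairs and 0 in 0 or 1 (6 and 0 with C1qb on library totals). The same shares over the 5930 genes were 13.3% and 5.85%. The list summed to 15910, 31340, 19430, 10770 and 10150 CPM. H2-Ab1 was at 3834, 7590, 4512, 2337 and 2160 CPM and H2-Eb1 at 1457, 3150, 1843, 993 and 1039 CPM, both chains of the peptide-presenting molecules. Ciita, the master regulator of class II transcription, was at 50.4, 87.4, 77.7, 48.8 and 36.3 CPM. Pool 2 was highest for 7 of the 10 listed genes, while H2-DMb2, H2-Ob and H2-Oa, which belong to the peptide-loading accessory molecules, were highest in pool 3 (91.0, 43.5 and 21.3 CPM). H2-Ab1 rose by 2.44 (log2, SE 0.33, adjusted p = 4.9e-05, edgeR) against resting lung. Of the 10 class II genes 7 rose and 1 fell. Cd86, a costimulatory ligand, was at 280, 358, 284, 167 and 119 CPM, whereas its relative Cd80 was at 163, 135, 132, 206 and 284 CPM and highest in pool 5.

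Other genes on the macrophage side with large SDs were Spon1, Ly6i, Sh3pxd2b and Rin2. Ly6i, a surface antigen of activated macrophages, was at 401, 614, 429, 261 and 136 CPM, and Sh3pxd2b, a podosome adaptor, at 55.6, 83.9, 60.7, 25.6 and 23.4 CPM. Spon1 and Rin2 were as high or higher in resting lung: Spon1 was at 24.2 to 108 CPM at day 7 and 89.7 to 142 CPM in resting lung. The genes that reversed the macrophage order with the largest SDs were Bank1, a B cell adaptor, at 95.8, 93.6, 133, 273 and 263 CPM, Grk6, a receptor kinase, at 93.4, 81.5, 109, 232 and 218 CPM, and Adamdec1, a metalloprotease, at 44.0, 30.4, 45.7, 93.4 and 92.0 CPM. Zfp971 and Prkab2 completed these 5 genes. All 5 were higher in both of pools 4 and 5 than in pools 1, 2 and 3.

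Of 19 glycolysis and hypoxia genes at 20 CPM or more, 8 shared the order of C1qa in 9 or 10 pairs, beside 13.3% of all genes. The order of Ccr3 was shared in 0 or 1 pairs by 5 of the 19, beside 17.8% of all genes. Hk2, a hexokinase, was at 166, 119, 79.1, 60.6 and 57.0 CPM and Bnip3, a mitophagy receptor, at 164, 135, 59.0, 38.8 and 48.2 CPM. Vegfa, the vascular growth factor, was at 507, 473, 264, 524 and 608 CPM and lowest in pool 3, without which its SD was 0.152 in place of 0.462. Against resting lung 17 of the 21 listed genes rose and 0 fell, beside 23.3% and 23.4% of all genes tested.

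**Figure D5:**
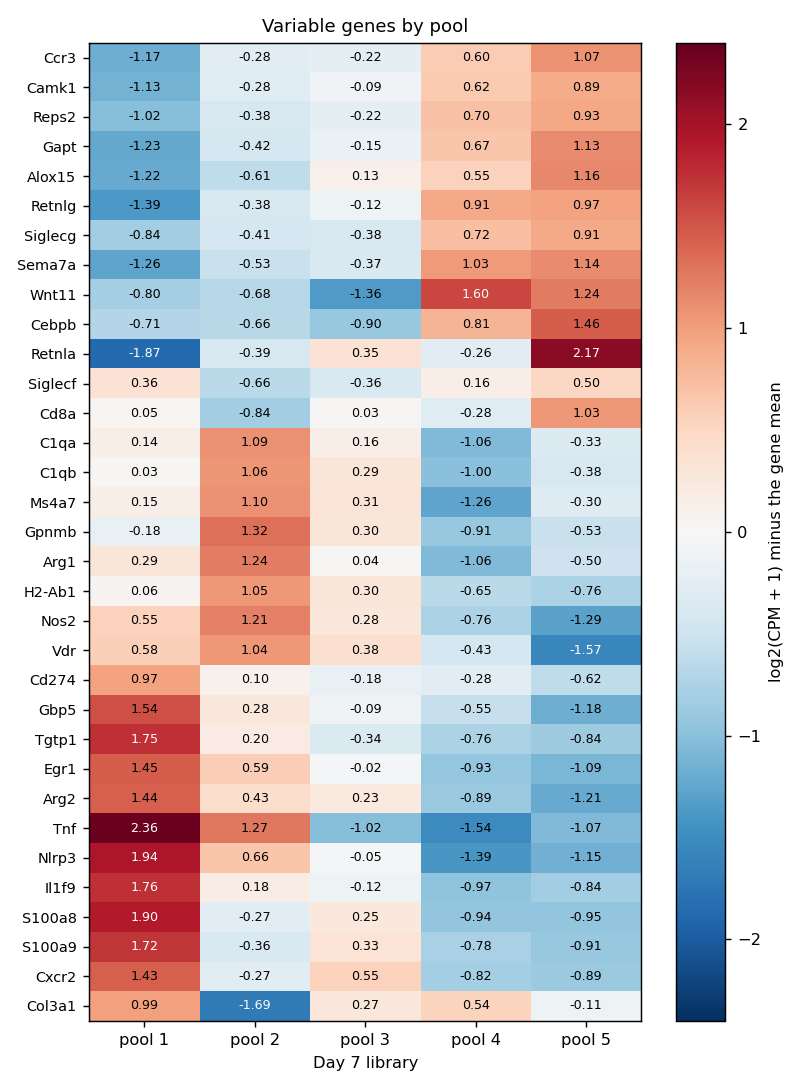
Log2(CPM + 1) of 33 genes in each day 7 pool minus the mean of the gene over the 5 pools, printed in each cell (red higher, blue lower). Genes from Ccr3 to Cebpb are high in pools 4 and 5, those from C1qa to Vdr are high in pool 2, and those from Cd274 to Cxcr2 are high in pool 1.

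The level test against resting lung was read over the order sets. Genes had to reach 20 CPM at day 7 to be counted, which favours rises, and over all 5930 genes 39.8% were called higher and 11.2% lower. On the side of Ccr3, 110 of 561 genes were higher and 87 lower. On the reverse side 526 of 1055 were higher and 79 lower. On the macrophage side 510 of 788 were higher and 38 lower, against 62 higher and 81 lower of the 347 genes that reversed it. The orders were computed from the same day 7 libraries as the level test, so these counts are a description.

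Whether the day 7 pools differed among themselves more than the resting pools was tested with limma on absolute deviations from the group mean, for the 5289 genes at 20 CPM or more in all 10 libraries. The median SD was 0.201 at day 7 and 0.166 in resting lung, and 3471 genes (65.6%) had the larger SD at day 7. After adjustment 5 genes (0.0945%) were more variable at day 7 and 0 less variable, and at an unadjusted p under 0.05 the counts were 752 and 151. The 5 genes were Cdkn1a, Cebpb, Fry, Jup and Rab32. Rab32, a GTPase of lysosome-related organelles, was at 258, 226, 230, 118 and 122 CPM at day 7 and at 71.9 to 75.7 CPM in resting lung (adjusted p = 0.027, limma). Cdkn1a, the cell cycle inhibitor p21, was at 951, 988, 509, 566 and 563 CPM, against 393 to 451 CPM in resting lung (adjusted p = 0.049, limma), with pools 1 and 2 high. Jup, the junction protein plakoglobin, was at 32.6, 36.9, 36.7, 76.7 and 72.8 CPM and fell by 3.03 (log2, SE 0.25, adjusted p = 5.5e-07, edgeR) from 371 to 476 CPM in resting lung. Fry was at 57.8, 65.9, 64.3, 121 and 120 CPM. With squared deviations or with deviations from the group median 0 genes passed in either direction, and leaving out 1 library gave 0 to 331 larger, the most without day 7 pool 3, so that the call of these 5 genes rests on the choice of test and of libraries.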

How the data were processed

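The libraries followed Trizol extraction and used the NEBNext Ultra II kit in an ultra-low input service, per the labels' protocols. The submitters' processing notes name the mouse build mm10 and the tools STAR 2.5.2b, Subread 1.5.2, featureCounts, Trimmomatic 0.36 and bcl2fastq 2.17. The authors deposited unnormalized counts, whole numbers per gene. Not given in the sources used here are the strandedness of the counting, the gene annotation and the handling of multiply matching reads. Values of near-identical genes (H2, guanylate-binding protein, Tgtp, Ear and resistin-like genes) and of genes with an antisense neighbour are therefore uncertain.

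Columns were tied to samples by name, which gave the 5 day 7 and 5 resting libraries, and 10 columns of other samples were not used. Symbols came from GENCODE M21 for 49056 of 49315 identifiers. CPM used TMM scaling from edgeR 4.0.16 over these 10 libraries, with a pseudocount of 1 CPM on the log2 scale. Levels were tested with the quasi-likelihood F test of edgeR on 16500 genes left by filterByExpr, and spread with limma 3.58.1 on absolute deviations, both at an adjusted p of 0.05. The level test and the spread test were run on simulated data first. Alternatives were another scaling, filter, pseudocount or tool (DESeq2 1.42.0), each library left out, and a replicate block.

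The gene lists (31 lists, 440 entries, with some shared members) and the members were chosen with earlier results of these data known. The rule for named genes took the anchor genes, the 12 most abundant by CPM and per kb, the 20 with the largest SD, those with the largest SD in each order set and list, the closest to Ccr3 and C1qa, and those that passed the spread test. It gave 135 genes. Il5ra, Csf2rb, Clec4a4, Ptgdr2, Scgb1a1, H2-DMb2, H2-Ob, H2-Oa, Epx, Ear1, Ear6, Prg3, Adgre1, Adgre4, Csf1r, Fcgr1, Csf3r, Cd3e, Cxcl9, Ciita, Cd80, Cd86, Marco, Mcpt8, Sftpc, Serpinb2, Fpr2, Batf2, Ikbke, U2surp, Babam2 and Kif5b were named after their values were seen.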

Additional observations from a re-analysis of the deposited data

Results flagged for a closer look

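Of 186 single-gene levels, list sums and library totals examined, 13 had 1 pool far from the other 4, with a gap to the nearest pool above 0.71 of the whole range. Chance gives about 1 such value in 20, and many of these genes share a list, so the number is no result in itself.

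Pool 1 was the far high library for S100a8 (3110 CPM), S100a9 (2844 CPM), Tgtp1 (1179 CPM) and Il1f9 (289 CPM). Pool 5 was the far high library for Retnla (4333 CPM), the airway secretory gene Scgb1a1 (67.3 CPM), the summed genes of alternative activation (5276 CPM), to which Retnla belongs, and the summed dendritic cell genes (327 CPM). Most dendritic cell genes did not share the direction of their sum: of 11 members, 7 were lowest in pool 5 and 3 highest. Pool 5 was the far low library for Clec4a4, a C-type lectin of eosinophils (0.269 CPM, from 5 counts), and for the summed alveolar macrophage genes (773 CPM). Pool 2 was the far low library for the replication genes Top2a (25.6 CPM) and Mcm2 (24.8 CPM) and for the summed cell cycle genes (510 CPM). Pools 3 and 4 gave no such value.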

How the results depend on the processing

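The median SD between pools was 0.189 to 0.215 with each day 7 library left out. The number of genes over 2 times apart was 517 to 855. Genes sharing the order of both Ccr3 and Siglecf numbered 0 to 462 and those reversing it 0 to 1197, and at 8 of 10 pairs 199 and 679. Genes on the macrophage side numbered 270 to 724 with a library left out, 281 with DESeq2 size factors, 420 at 50 CPM, 129 at 10 of 10 pairs and 1687 at 8 of 10. Genes reversing it numbered 226 to 331, and 134, 211, 59 and 891 under the same settings.

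Genes on the side of Ccr3 numbered 336 to 510 with a library left out, 315 at 50 CPM, 158 at 10 of 10 pairs and 1047 at 8 of 10. Genes reversing Ccr3 numbered 628 to 1197, and 597, 338 and 2007 under the same settings, with 598 on library totals. For Siglecf the side counts were 142 to 462, 148, 46 and 704, and the reverse counts 248 to 1197, 382, 120 and 1413. Counts at other numbers of pairs or minimum levels differ by construction. Under another scaling few genes printed above crossed the cut of 9 or more, or of 1 or fewer, pairs ordered as in Ccr3. Among them were Jup, Fry and Actb (9 on library totals), B2m and Cd86 (1 with DESeq2 size factors). Smaller changes in the number of pairs were not counted.

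Library totals in place of TMM moved the median log2 difference from resting lung by -0.19, and 2521 genes were then higher and 4863 lower. With no filter on low counts 6715 were lower. The count of more variable genes was 0 with squared deviations, with deviations from the median and with no filter, 1 with the filter in the day 7 pools alone, and 0 to 331 with a library left out, when 0 to 12 were less variable. The cause of these shifts was not tested.

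The labels give both groups the numbers 1 to 5. The deviations of same-numbered libraries correlated at -0.25 to 0.157, and those of differently numbered libraries at -0.294 to 0.234. These values give no sign that the numbers pair the samples, but with so few libraries they cannot exclude it. With the number as a replicate block 3317 genes were higher, 3636 lower, 0 more variable and 0 less variable, and of 23 named genes only Tnf lost its call of level (log2 difference 1.03, adjusted p 0.17).

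Without the count filter Tnf, Nlrp3 and Egr1 lost theirs (adjusted p 0.111, 0.0547 and 0.0584). The values for Tnf and S100a8 with single libraries left out are given above. Beside all these, the levels of the 23 named genes kept their direction and call in every alternative run. Depth limits the lowest markers, such as Epx and Clec4a4.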

Other observations

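Cell cycle genes were lowest in pool 2 for 15 of 16 members, beside 13.6% of the 5930 genes at 20 CPM or more, which include 9 of the 16. Against resting lung 14 of the 16 rose and 1 fell, beside 23.3% and 23.4% of all genes tested. Top2a, the topoisomerase of dividing cells, was at 44.6, 25.6, 51.6, 49.6 and 48.2 CPM in pools 1 to 5, and Mcm2, a helicase subunit, at 38.2, 24.8, 36.1, 38.7 and 36.3 CPM. Without pool 2 their SDs fell to 0.0875 and 0.0491. T cell genes were lowest in the same pool for 11 of 12 members, and their part in this difference was not tested.

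Red cell and platelet genes summed to 158, 132, 103, 125 and 166 CPM, against 1419 to 2151 CPM in resting lung, and 10 of 10 fell. Receptors for eosinophil cytokines summed to 3208, 2710, 2671, 2314 and 2197 CPM. Of the 9 at 20 CPM or more 4 were ordered as in Ccr3 in 0 or 1 pairs, beside 17.8% of the 5930 genes. Csf2rb, the shared signalling chain for interleukins 3 and 5, was at 1234, 993, 983, 864 and 834 CPM, the reverse of Il5ra, and rose against resting lung by 1.21 (log2, SE 0.15, adjusted p = 1.9e-05, edgeR). Heat shock and endoplasmic reticulum stress genes were highest in pool 2 for 7 of 13 members, beside 27.6% of all 5930 genes at 20 CPM or more, with the chaperone Hspa5 at 1220, 1434, 1173, 900 and 840 CPM.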
